A study of Mus musculus with 4 samples.

Results

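The genes described here are 10 transcripts of the circadian clock, Arntl, Clock, Npas2, Per2, Per3, Cry1, Nr1d1, Nr1d2, Dbp and Tef. They were taken by symbol from all genes of the deposited matrices. All 10 were found, and each had at least 1 UMI (a unique molecular identifier, which marks 1 captured transcript) in every library. Their levels were read in single-cell RNA sequencing libraries of the lungs of 4 female mice on the FVB/NJ background. All of the mice carried MMTV-PyMT, a transgene in which a mammary tumour virus promoter drives the polyoma middle T antigen mainly in mammary epithelium, so the lungs came from animals with a mammary tumour model. At 8 weeks of age, 2 mice received a placebo pellet and 2 received a pellet of 5 mg tamoxifen with release over 60 days. Tamoxifen is a ligand of the oestrogen receptor that acts as an antagonist in breast tissue. The lungs were taken at 13 weeks of age, after 5 weeks with the pellet. The hour of the day at which each mouse was killed is not given in the sources used here. The cells of each lung made up 1 droplet library (10x Genomics, 5' ends), and the mouse is the replicate throughout (placebo 1, placebo 2, tamoxifen 1 and tamoxifen 2).

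The molecular clock of mammals is a feedback loop of transcription that turns about once a day in nearly every tissue. The proteins of Arntl (also called Bmal1) and Clock, or its relative Npas2, bind as a pair to E-box sequences and switch on the Per and Cry genes, whose proteins return to inhibit that pair. The same pair switches on Nr1d1 and Nr1d2 (Rev-erb alpha and beta), receptors that repress Arntl, Clock, Npas2 and Cry1 through AGGTCA elements. It also switches on Dbp and Tef, transcription factors of the PAR bZIP family that act through D-box sequences. In mouse tissues under a light and dark cycle, Nr1d1, Dbp, Nr1d2, Tef, Per3 and Per2 therefore reach their peaks from the middle of the light phase to early darkness, nearly opposite to Arntl, Npas2 and Clock. Mice killed at different points of the cycle differ in these transcripts. In the mouse lung, the clock of airway epithelial cells is known to shape rhythms of chemokine release and neutrophil entry.

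The deposited barcodes numbered 7272 to 10168 per library, with 32646505 to 37285982 UMIs. Cells with at least 250 genes, at most 15% mitochondrial and at most 50% haemoglobin UMIs were kept, 6448 to 7530 per mouse. Cell types were called per cell from fixed marker genes, so each name below stands for cells gated on those markers. Among the 16 cell types with at least 20 cells in each mouse, 3 to 7 of a type's own markers were among its 10 leading genes. The gating on these same markers favours that, so it does not test the names. The interstitial macrophages were also led by Retnla, Fcna and Prg4. Any pair of libraries shared 77 to 128 barcodes, 1.06% to 1.43% of the smaller library. Median UMIs per gated cell ranged from 2604 in placebo 1 to 3824.5 in placebo 2. Levels are given as CPM, the UMIs of a gene scaled to counts per 1000000 UMIs of that cell type in that mouse, and their intervals are exact 95% Poisson intervals that cover counting error only.

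The elements that join these genes to each other are short sequences, some of which lie just upstream of their starts. RefSeq promoters on GRCm38.p6 (250 bases before a start) were found for 9 of the 10 genes, 13 promoters in all, and Per2 was not analysed for this. The letters TTATGTAA or TTACGTAA, a D-box to which proteins such as those of Dbp and Tef can bind, were searched on both strands. They occurred only in Per3 among these genes, at 205 and 158 bases before its start, and in 0.931% of all 32851 promoters of the same length. The Per3 promoter (chr4:151044666-151044915, minus strand, within an intron of Camta1 in GENCODE vM21) is shown with the D-box letters in capitals.
Per3: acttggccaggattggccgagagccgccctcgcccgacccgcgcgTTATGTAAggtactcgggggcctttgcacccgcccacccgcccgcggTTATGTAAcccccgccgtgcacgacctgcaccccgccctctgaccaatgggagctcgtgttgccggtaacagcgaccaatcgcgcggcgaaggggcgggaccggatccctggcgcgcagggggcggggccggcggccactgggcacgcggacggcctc
The E-box CACGTG, to which the Arntl and Clock proteins bind, occurred in Cry1 and Tef and in 6.02% of all promoters. Its windows are shown with the E-box in capitals, for Cry1 (chr10:85185098-85185125, minus strand, upstream of the annotated gene) and for 2 starts of Tef (chr15:81802535-81802562, exonic, and chr15:81811265-81811292, intronic, plus strand).
Cry1: gtgccggtggtCACGTGgggtgcatgcc
Tef first start: tgctgtggctcCACGTGctgcagctggc
Tef second start: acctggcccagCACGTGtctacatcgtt
The AGGTCA letters that Nr1d1 and Nr1d2 proteins recognise occurred in Clock and Nr1d2 and in 14.0% of all promoters. The Nr1d2 window (chr14:18239167-18239194, minus strand, upstream of the annotated gene) is shown with those letters in capitals.
Nr1d2: attggaagaagAGGTCAggaccgctcgt
These are matches of letters in a 250-base window, and binding was not measured.

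The genes differed first by cell type. Positions of the genes are those of GENCODE vM21 on GRCm38. Nr1d1 (ENSMUSG00000020889, chr11:98767932-98775333) was highest in alveolar fibroblasts at 151 ± 26.2 CPM (SD over the 4 mice), followed by adventitial fibroblasts at 132 ± 23.8, and by pericytes or smooth muscle cells at 115 ± 12.0. The ranges of these 3 stromal types overlapped, and the lowest mural value, 104 CPM, lay just above the highest of the next type, mesothelial cells at 101.5 CPM. Neutrophils held 0.451 ± 0.366 CPM. Dbp (ENSMUSG00000059824, chr7:45705088-45710203) was likewise highest in stroma, with 174 ± 78.5 CPM in alveolar fibroblasts, 152 ± 81.2 in adventitial fibroblasts and 146 ± 52.7 in mesothelial cells, 3 types that overlapped. Pericytes or smooth muscle cells, at 80.3 ± 17.8 CPM and at most 96.6 CPM, lay below every mouse's value in alveolar fibroblasts and mesothelial cells but overlapping adventitial fibroblasts, whose lowest mouse was at 73.6 CPM. Among lymphocytes Dbp stood at 19.2 ± 4.12 CPM in T cells and, without overlap, at 8.38 ± 1.13 CPM in B cells. The 12.6 ± 2.57 CPM of NK cells rested on 7 UMIs in all, too few to place them in this order. Neutrophils held 1.52 ± 0.262 CPM.

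Nr1d2 (ENSMUSG00000021775, chr14:18204054-18239127) and Tef (ENSMUSG00000022389, chr15:81802421-81826863) were also highest in stroma and surface cells. Nr1d2 reached 62.7 ± 18.2 CPM in alveolar fibroblasts and 59.8 ± 10.5 CPM in mesothelial cells, which overlapped. Tef reached 77.0 ± 22.0 CPM in mesothelial cells and 49.9 ± 20.05 CPM in club or secretory cells, the airway cells that make secretoglobins. Per3 (ENSMUSG00000028957, chr4:151003652-151044665), a period protein, was highest in alveolar type 2 cells (40.6 to 75.4 CPM over the mice) and adventitial fibroblasts (52.1 ± 27.5 CPM), which overlapped, and stood at 0.409 ± 0.195 CPM in neutrophils.

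The activators did not share a pattern. Clock (ENSMUSG00000029238, chr5:76209868-76304792) ranged from 53.7 ± 10.3 CPM in capillary endothelial cells to 4.98 ± 1.23 CPM in neutrophils, with overlap between all neighbours in the order except B cells and the type below them. Arntl (ENSMUSG00000055116, chr7:113207465-113314126) was not highest in stroma: NK cells stood at 27.0 ± 7.43 CPM from 15 UMIs in all, B cells at 20.2 ± 6.67, T cells at 19.5 ± 2.23 and pericytes or smooth muscle cells at 19.0 ± 7.86, and these overlapped. Npas2 (ENSMUSG00000026077, chr1:39193731-39363236) was found mainly in adventitial fibroblasts, at 16.2 ± 13.5 CPM, and in pericytes or smooth muscle cells, at 10.4 ± 7.70 CPM. In B cells and neutrophils it had 0 and 1 UMIs over the 4 mice, against 33 in alveolar fibroblasts. In B cells, 3 UMIs, the limit that a count of 0 allows, ranged from 0.862 CPM in tamoxifen 1 to 4.81 CPM in placebo 2.

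Per2 and Cry1, which encode inhibitors of the Arntl pair, were, like Arntl, as high in some white blood cells as in stroma. Cry1 (ENSMUSG00000020038, chr10:85131700-85185064) was highest in T cells at 38.7 ± 2.07 CPM and NK cells at 38.1 ± 10.4 CPM, then neutrophils at 27.8 ± 2.16 CPM, while alveolar fibroblasts held 10.0 ± 2.80 CPM. Per2 (ENSMUSG00000055866, chr1:91415982-91459324) was highest in alveolar type 2 cells at 33.2 ± 12.9 CPM and neutrophils at 32.4 ± 6.80 CPM, which overlapped, and T cells held 1.57 ± 1.06 CPM. The large SD of Per2 in fibroblasts, 24.2 ± 16.7 CPM, came from a difference between mice within both groups, described below.

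**Figure D1:**
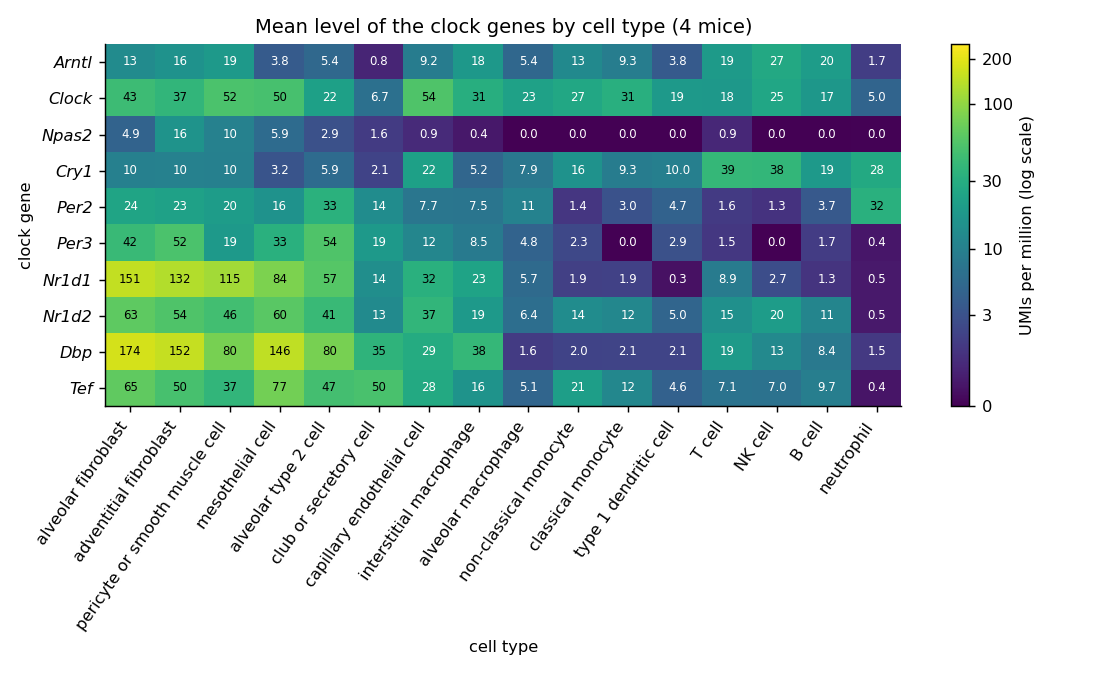
Mean level of each clock gene (rows) in each of 16 cell types (columns) over the 4 mice, in CPM, on a log colour scale with the values printed in the cells. Dbp and Nr1d1 are brightest in fibroblasts, mural and mesothelial cells, while in neutrophils Cry1 and Per2, at 27.8 ± 2.16 and 32.4 ± 6.80, stand above the other 8.

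The first comparison was of tamoxifen with placebo, within each cell type. No clock gene changed past the threshold in any cell type tested. After the count filter of edgeR, 75 of the 160 pairs of gene and cell type could be tested, in 14 of the 16 cell types. NK cells and classical monocytes held too few UMIs for any of the 10. At an adjusted p under 0.05 in edgeR's quasi-likelihood test, 0 of the 75 pairs were called, and 23 of 104077 tests over all genes and cell types were called (0.0221%). DESeq2 also called 0 pairs. At an unadjusted p under 0.05 there were 2 pairs, 2.67% of those tested, against 3.61% of all tests. The log2 fold changes of the 75 pairs lay between -1.62 and 0.79, with standard errors of 0.15 to 0.84 and a median of 0.37. Their median absolute log2 fold change was 0.28, against 0.18 for all tests.

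The pair with the smallest p was Dbp in capillary endothelial cells. Its levels were 29.2 and 56.7 CPM in the placebo mice and 10.7 and 20.2 CPM in the tamoxifen mice, from 31, 64, 9 and 8 UMIs. Both tamoxifen mice lay below both placebo mice, and within each group the mouse numbered 2 was the higher. The log2 fold change was -1.62 ± 0.47 (SE; 95% interval -2.66 to -0.58), with an adjusted p of 1.000 in edgeR's quasi-likelihood test. Without placebo 1 it was -2.03 with an adjusted p of 0.0185, the only call that leaving out a mouse gave for these genes. With cells that carried markers of another compartment kept, it was -1.04 (an alternative chosen after seeing the data).

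Clock in alveolar fibroblasts was the other pair with an unadjusted p under 0.05. It stood at 39.96 and 29.4 CPM in the placebo mice and 54.7 and 48.5 CPM in the tamoxifen mice, which did not overlap, with a log2 fold change of 0.53 ± 0.20 (SE; adjusted p = 0.999 in edgeR's quasi-likelihood test). Clock was also higher in both tamoxifen mice in adventitial fibroblasts (log2 fold change 0.26, 95% interval -0.43 to 0.94) and capillary endothelial cells (0.40, -0.14 to 0.94). In neutrophils both tamoxifen mice lay below the placebo mice (-0.37, -1.06 to 0.33). Over all genes here, the groups did not overlap in 13 of 75 pairs, 5 higher and 8 lower with tamoxifen, or 17.3%, against 31.6% of all tests.

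The intervals show what these data could not show. In T cells, where Cry1 stood at 41.4 and 39.1 CPM in the placebo mice and 36.4 and 37.9 CPM in the tamoxifen mice, the log2 fold change was -0.11 with a 95% interval of -0.46 to 0.24. In neutrophils, which had the most cells, Cry1 was at 25.8 and 30.7 CPM with placebo and 26.7 and 28.0 CPM with tamoxifen (log2 fold change 0.041, -0.31 to 0.39). For Per2 in adventitial fibroblasts, the interval ran from -1.50 to 2.17, so neither a rise nor a fall of 2-fold could be told from no change at this number of mice.

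**Figure D2:**
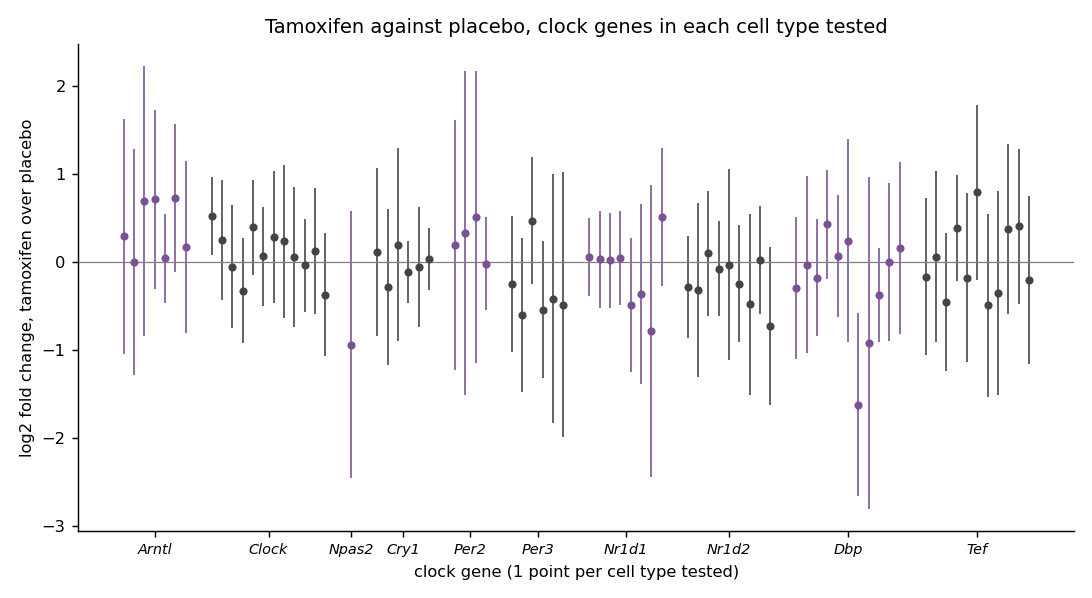
Log2 fold change of tamoxifen over placebo for each of the 75 pairs of clock gene and cell type tested, grouped by gene, with 95% intervals from edgeR's quasi-likelihood fit (n = 2 mice per group). Most intervals cross 0, and the lowest point, at -1.62, is Dbp in capillary endothelial cells.

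In stromal cells, several of these genes differed more between the mice of 1 group than between the group means. In alveolar fibroblasts, the cells that support the air sacs, Per2 stood at 8.22 and 40.1 CPM in placebo 1 and placebo 2 and at 11.4 and 37.1 CPM in tamoxifen 1 and tamoxifen 2. Placebo 2 and tamoxifen 2 were thus high and placebo 1 and tamoxifen 1 low, with Poisson intervals of 5.15 to 12.4 and 6.25 to 19.2 CPM for the low mice and of 30.9 to 51.2 and 28.3 to 47.9 CPM for the high ones. Arntl, the activator, ran the other way, at 17.2 and 5.01 CPM in the placebo mice and 25.3 and 6.30 CPM in the tamoxifen mice. Its intervals were 12.6 to 22.9 and 17.2 to 35.9 CPM in placebo 1 and tamoxifen 1, and 2.16 to 9.87 and 3.02 to 11.6 CPM in placebo 2 and tamoxifen 2. Each group held a mouse of both kinds, and the log2 fold changes of tamoxifen over placebo for Per2 and Arntl were 0.20 ± 0.64 and 0.30 ± 0.60.

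The output genes followed Per2. Dbp in alveolar fibroblasts was at 109 and 279 CPM in the placebo mice and 119 and 191 CPM in the tamoxifen mice. Tef, its relative, was at 35.5 and 105 CPM with placebo and 49.8 and 69.3 CPM with tamoxifen. Placebo 2 was the highest for both, tamoxifen 2 second, and placebo 1 the lowest. Per3 stood at 29.5 and 63.2 CPM in the placebo mice and at 27.8 and 46.0 CPM in the tamoxifen mice, in the same split of the mice. Nr1d1, the repressor of Arntl, varied less, at 134 and 163 and 126 and 183 CPM, and Nr1d2 was at 49.3 and 89.5 and 54.7 and 57.3 CPM. Npas2 did not pass the count filter and rested on 14, 5, 12 and 2 UMIs, which gave 5.23 and 3.13 CPM with placebo and 9.80 and 1.26 CPM with tamoxifen. Cry1 was at 6.72 and 13.1 and 8.98 and 11.3 CPM, with overlapping intervals.

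**Figure D3:**
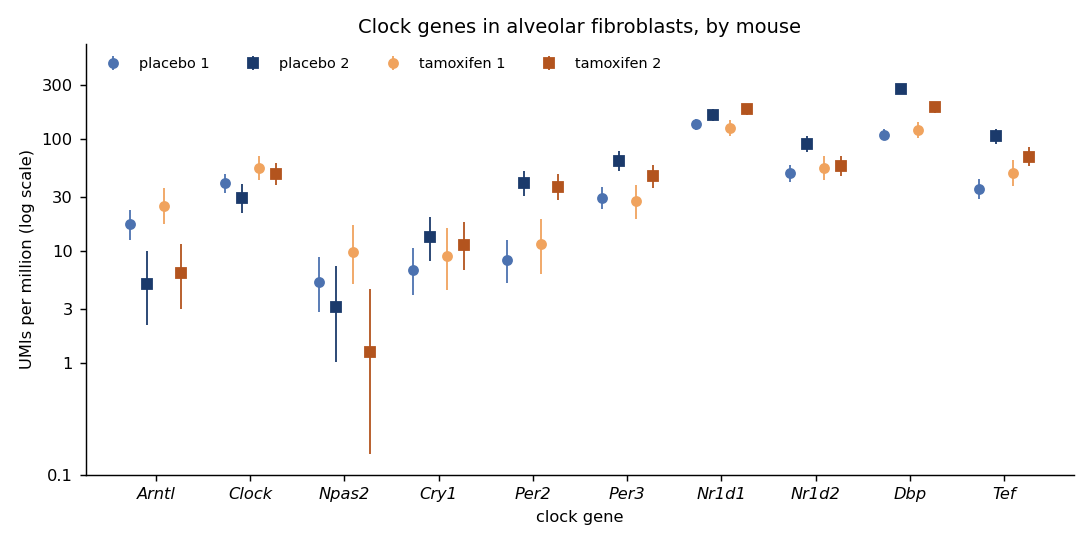
Level of the 10 clock genes in alveolar fibroblasts of each mouse, in CPM on a log axis, with exact 95% Poisson intervals (counting error only). Placebo 2 and tamoxifen 2 (squares) lie above placebo 1 and tamoxifen 1 (circles) for Per2, Per3, Cry1, Nr1d1, Nr1d2, Dbp and Tef and below them for Arntl.

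In this cell type, 7 of the 9 genes tested were higher in both placebo 2 and tamoxifen 2 than in both other mice (Per2, Per3, Cry1, Nr1d1, Nr1d2, Dbp and Tef), and 1, Arntl, was lower in both. Over all genes tested there, 16.8% were higher in this way and 20.5% lower. This order of the mice was noticed in the data, it follows the replicate numbers of the labels, and it was given no test. Adventitial fibroblasts, which lie around vessels and airways, had the same order for 6 of 8 genes (Nr1d1, Nr1d2, Tef, Per3, Per2 and Dbp), against 18.3% of all genes, and Npas2 was reversed (15.1%). There Per2 was at 6.57 and 39.6 CPM in the placebo mice and 3.77 and 40.7 CPM in the tamoxifen mice. Npas2 fell into the opposite order, at 34.2 and 5.28 CPM and 18.8 and 6.51 CPM, and Dbp was at 73.6 and 246 CPM and 96.1 and 194 CPM. Arntl was not tested in these cells, and its 38 UMIs gave 26.3 and 13.2 CPM with placebo and 13.2 and 9.77 CPM with tamoxifen, high only in placebo 1.

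Mesothelial cells, the lining of the lung surface, showed the order for 6 of 7 genes (13.1% of all genes) and its reverse for 0 (21.9%). Per2 was at 2.43 and 28.8 CPM in the placebo mice and 4.12 and 27.9 CPM in the tamoxifen mice, from 2, 16, 3 and 44 UMIs. Dbp in mesothelial cells stood apart only in tamoxifen 2, at 124 and 129 CPM with placebo and 107 and 224 CPM with tamoxifen, and Clock was among the 6 here. Nr1d1, at 96.1 and 70.1 and 67.3 and 101.5 CPM, did not take part. Pericytes or smooth muscle cells showed the order for 1 of 6 genes tested (Dbp; 12.5% of all genes) and its reverse for 2, Arntl and Nr1d2 (21.1%). Per2 was not tested there, and stood at 10.6 and 22.6 CPM with placebo and 7.33 and 39.95 CPM with tamoxifen.

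Capillary endothelial cells shared part of the order. Cry1, Nr1d1, Nr1d2, Tef and Per3 were higher in placebo 2 and tamoxifen 2, 5 of 8 genes (14.2% of all genes), and Arntl was lower (24.4%). Nr1d1 was at 23.6 and 45.2 CPM in the placebo mice and 17.8 and 43.0 CPM in the tamoxifen mice. Arntl was at 12.3 and 2.66 and 14.2 and 7.59 CPM, from 13, 3, 12 and 3 UMIs. Dbp, given above, was instead high in both placebo mice. In alveolar type 2 cells Dbp stood at 79.6 ± 12.1 CPM and Nr1d1 at 57.0 ± 15.3 CPM, and most genes tested there did not share the order. Of Nr1d1, Nr1d2, Dbp, Tef and Per3, the genes tested there, only Nr1d2 was higher in both placebo 2 and tamoxifen 2. Dbp was lower in both. The shares of all genes in this cell type are not given, so these counts are a description.

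Among white blood cells, interstitial macrophages showed the widest spread. Dbp in them was at 16.8 and 87.2 CPM in the placebo mice and 6.97 and 42.5 CPM in the tamoxifen mice. Nr1d1 was at 12.8 and 49.1 CPM with placebo and 5.57 and 26.4 CPM with tamoxifen, and Arntl at 19.2 and 8.01 and 28.6 and 16.6 CPM. For Dbp and Nr1d1 placebo 2 was the highest, then tamoxifen 2, placebo 1 and tamoxifen 1, and for Arntl that order was turned around. Of the 7 genes tested, 5 were higher in placebo 2 and tamoxifen 2 (16.6% of all genes) and Arntl was lower (19.2%).

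Markers of alveolar fibroblasts were low in these macrophages. That was partly set by the gate, which used these markers and left out cells with more than 2 rare ones of another compartment. Inmt, a defining gene of alveolar fibroblasts, stood at 17.6 and 15.03 CPM in the macrophages of the placebo mice and 6.97 and 8.61 CPM in those of the tamoxifen mice, 0.146 to 0.361% of its fibroblast level in the same mouse. Dbp in the macrophages was 5.84 to 31.3% of its fibroblast level. The 9 markers of alveolar fibroblasts, of which 1 was at 0, summed to 0.0886 to 0.259% of their level in that type. Because these markers also served the gate, they cannot show how much fibroblast RNA the macrophages held, and its part in Dbp was not tested. Retnla and Fcna, of which Fcna is known from macrophages of the body cavities, moved with the clock genes. Retnla in the macrophages was at 5787 and 831 CPM with placebo and 9524 and 5169 CPM with tamoxifen, and Fcna at 963 and 412, and 1425 and 856 CPM. Both were highest in tamoxifen 1 and lowest in placebo 2, the reverse of Dbp, and their part in the result was not tested. In alveolar fibroblasts the 8 markers of interstitial macrophages, 1 at 0, summed to 7.68 to 9.04% of their macrophage level. C1qa, 1 of these markers, was at 2.61 and 0 CPM there with placebo and 0.817 and 0 CPM with tamoxifen. The sum thus came from other markers of the list, which includes Apoe, and is not a measure of macrophage RNA in the fibroblasts.

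**Figure D4:**
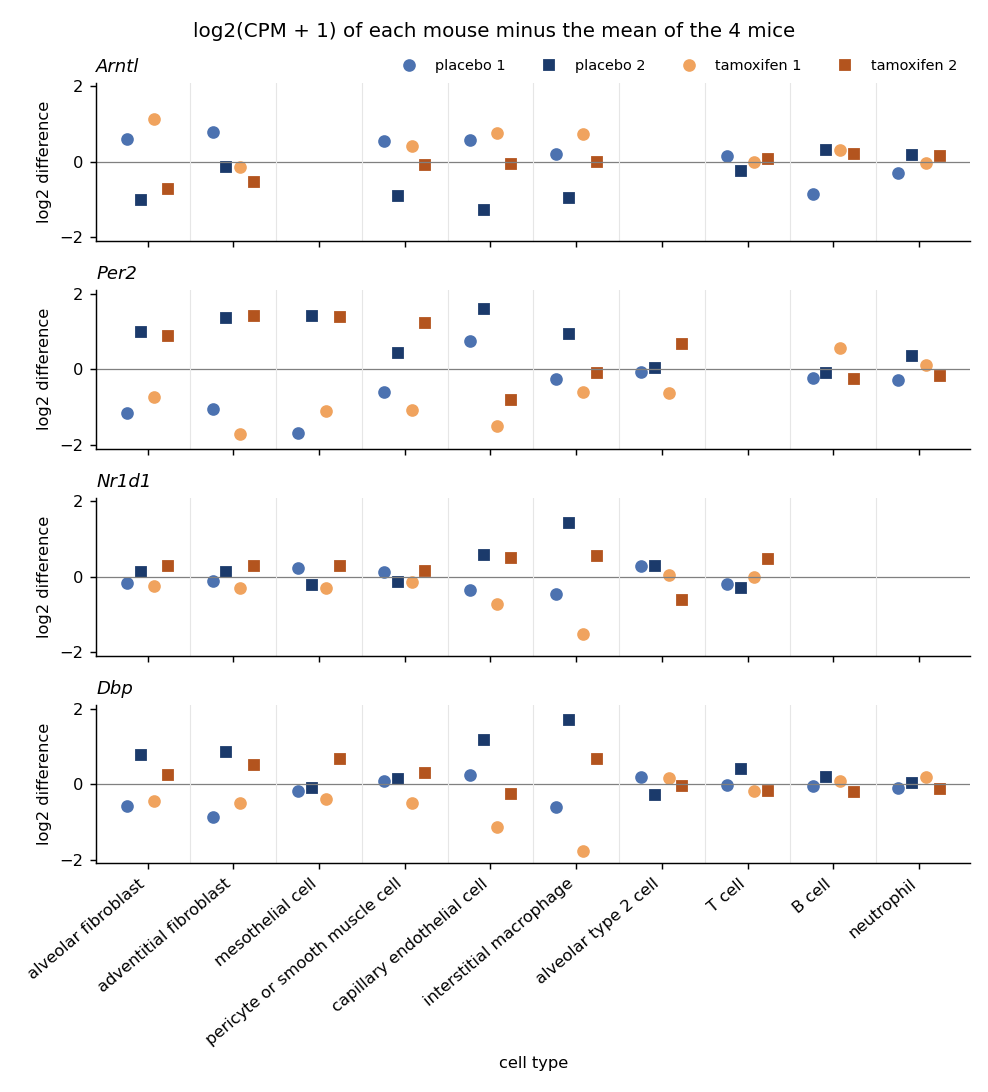
Difference of each mouse from the mean of the 4 mice in log2(CPM + 1), for Arntl, Per2, Nr1d1 and Dbp in 10 cell types (pairs with fewer than 20 UMIs in all are left out). Placebo 2 and tamoxifen 2 (squares) lie apart from placebo 1 and tamoxifen 1 (circles) in fibroblasts, with Arntl opposite to Per2 and Dbp, while in T cells, B cells and neutrophils most points lie near 0.

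Lymphocytes and neutrophils did not show this order among the genes that could be tested in them. The count filter left out Npas2, Per2 and Per3 in T cells, and these genes and Nr1d1 in B cells. It left out Npas2, Per3, Nr1d1, Nr1d2 and Tef in neutrophils, so the order could not be read for these genes. In T cells, placebo 2 and tamoxifen 2 were both above for 1 gene, Nr1d2, of 7 tested (10.7% of all genes) and both below for 1, Tef (26.0%). Arntl in T cells was at 21.5 and 16.4 CPM in the placebo mice and 19.4 and 20.5 CPM in the tamoxifen mice, and Dbp at 18.8 and 25.2 and 16.4 and 16.5 CPM. In B cells 0 of 6 genes were above (13.4%), and Cry1 and Clock were below (20.9%). Arntl in B cells was low in 1 mouse only, at 10.3 and 24.0 CPM with placebo and 24.1 and 22.4 CPM with tamoxifen. In neutrophils, Arntl and Cry1 of 5 genes were above (15.3%) and 0 were below (12.7%). Per2 in neutrophils was at 26.0 and 40.8 CPM in the placebo mice and 34.9 and 27.9 CPM in the tamoxifen mice, from 154, 698, 281 and 282 UMIs. Placebo 2 was the highest and placebo 1 the lowest, and the fibroblasts of tamoxifen 2 stood high where its neutrophils did not. That the order differs between cell types was not tested.

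Over all 75 pairs, 36 (48.0%) had both placebo 2 and tamoxifen 2 above the other mice, against 15.5% of all tests, and 13 (17.3%) had both below, against 19.5%. For Per2, Per3, Nr1d1, Nr1d2, Dbp and Tef, 30 of 49 pairs had them above and 3 below. For Arntl, Clock, Npas2 and Cry1, 6 of 26 had them above and 10 below, and Cry1 differed from the other genes of this set. Cry1 had them above in 4 of 6 cell types and below in 1, Arntl above in 1 of 7 and below in 4, and Clock above in 1 of 12 and below in 4. Npas2 had them below in the 1 cell type tested. Dbp was tested in 11 cell types, and was highest in placebo 2 in 6, in tamoxifen 2 in 3, in placebo 1 in 1 and in tamoxifen 1 in 1. Nr1d2 was highest in placebo 2 in 8 of 9 cell types. Clock was highest in tamoxifen 1 in 9 of 12 cell types and lowest in placebo 2 in 5. How often each mouse was highest or lowest over all genes was not computed, so Dbp, Nr1d2 and Clock cannot be set against it. Pairs from 1 mouse share a library and genes of a feedback loop move together, so these counts describe the mice and are not independent.

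To set the 2 sides of the loop against each other within a library, the UMIs of Nr1d1, Nr1d2, Dbp, Tef and Per3 were taken as a share of these plus Arntl, Clock, Npas2 and Cry1. This day-side share needs no scaling between libraries, and its intervals are exact Clopper-Pearson 95% intervals. It was computed in the 9 cell types with at least 50 such UMIs in each mouse. In alveolar fibroblasts it was 83.8% in placebo 1, 93.2% in placebo 2, 79.2% in tamoxifen 1 and 89.0% in tamoxifen 2. Their intervals, 81.5 to 85.9%, 91.7 to 94.6%, 75.7 to 82.5% and 86.9 to 90.9%, kept placebo 2 and tamoxifen 2 apart from the other mice. In interstitial macrophages it was 54.7%, 81.2%, 34.5% and 69.2% in the same order of mice, again with separate intervals (46.0 to 63.1%, 75.9 to 85.8%, 26.8 to 42.7% and 63.5 to 74.4%).

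The share of capillary endothelial cells was 55.7% in placebo 1, 76.0% in placebo 2, 48.3% in tamoxifen 1 and 59.6% in tamoxifen 2. Adventitial fibroblasts had 74.7%, 90.5%, 79.3% and 87.7%, and pericytes or smooth muscle cells 76.2%, 77.4%, 69.7% and 82.5%. Placebo 2 and tamoxifen 2 were thus the highest mice in 5 of the 9 cell types, but their intervals were separate from those of both other mice in only 2, alveolar fibroblasts and interstitial macrophages. In pericytes or smooth muscle cells the values of placebo 1 and placebo 2 lay within counting error of each other. Mesothelial cells, at 86.2%, 82.8%, 84.8% and 90.6%, had tamoxifen 2 highest and placebo 2 lowest, although Per2, which is on neither side of the share, split the mice there. Of the 7 types left out for few UMIs, classical monocytes had placebo 2 and tamoxifen 2 lowest. Alveolar type 2 cells, NK cells, alveolar macrophages and non-classical monocytes had them highest. Alveolar type 2 cells were at 86.1%, 88.5%, 85.0% and 95.9%, with all 4 intervals overlapping.

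In T cells the share was 37.2%, 42.7%, 40.9% and 39.9%, with all 4 intervals overlapping. Neutrophils lay at 8.13%, 7.75%, 9.09% and 9.19%, since Cry1 and Clock gave most of their UMIs, and these also overlapped. B cells, at 40.9%, 42.4%, 26.9% and 35.7%, were the only type with both tamoxifen mice below both placebo mice, and neutrophils the only type with both above. The mean difference of tamoxifen minus placebo over the 9 types was -4.19 percentage points, with an SD over types of 6.93. The order of the mice in this share was not the same in every cell type, and the difference between cell types was not tested. The neutrophil share lay near its floor, since the day-side genes were at low levels there, so it could show little spread. Per2, which is outside the share, did differ between neutrophils of the placebo mice beyond counting error, with intervals of 22.0 to 30.4 CPM in placebo 1 and 37.8 to 43.9 CPM in placebo 2.

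**Figure D5:**
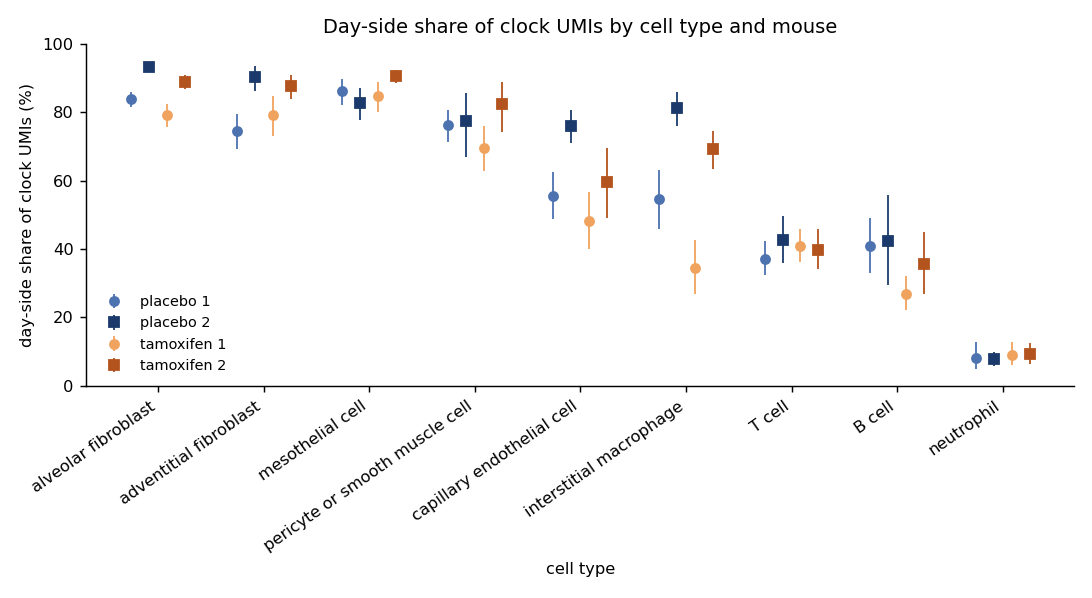
Day-side share of clock UMIs (Nr1d1, Nr1d2, Dbp, Tef and Per3 as a percentage of these plus Arntl, Clock, Npas2 and Cry1) in 9 cell types and each mouse, with exact 95% Clopper-Pearson intervals. The mice spread from 34.5% to 81.2% in interstitial macrophages and lie between 7.75% and 9.19% in neutrophils.

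Each gene was also averaged over the cell types in which it had at least 20 UMIs, as log2(CPM + 1) with equal weight per cell type, and the groups were compared by a two-sided exact permutation test. With 2 mice against 2, the smallest p this test can give is 0.333. The values in placebo 1, placebo 2, tamoxifen 1 and tamoxifen 2 were 5.02, 5.70, 4.84 and 5.41 for Dbp (11 cell types), a difference of -0.24 on the log2 scale with an exact p of 0.667. For Arntl (9 cell types) they were 3.90, 3.19, 4.07 and 3.42, a difference of 0.20 and an exact p of 0.667. For Per2 (11 cell types) they were 3.18, 4.26, 3.01 and 4.00, a difference of -0.22 and an exact p of 0.667. The groups overlapped for all 10 genes, whose differences lay between -0.65 (Npas2, 3 cell types) and 0.20 (Arntl).

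Genes outside the 10 that belong to the same pathway were read from a list of 19. Over the cell types, 145 pairs were tested and 0 were called higher or lower with tamoxifen in edgeR's quasi-likelihood test. Hlf, the third PAR bZIP factor, followed Dbp in alveolar fibroblasts, at 34.7 and 82.0 CPM in the placebo mice and 24.5 and 79.3 CPM in the tamoxifen mice. It was at 36.8 and 135 and 30.2 and 83.0 CPM in adventitial fibroblasts. Bhlhe40 (Dec1), an E-box repressor, was at 54.5 and 121 CPM with placebo and 47.4 and 132 CPM with tamoxifen in alveolar fibroblasts, and Ciart, another repressor of the Arntl pair, at 0.747 and 6.89 and 1.63 and 8.18 CPM. Both had placebo 2 and tamoxifen 2 on top.

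Per1 and Cry2 did not follow them. Per1, which is also an immediate target of glucocorticoids and of cyclic AMP signalling, was at 202 and 173 CPM with placebo and 181 and 124 CPM with tamoxifen in alveolar fibroblasts, lowest in tamoxifen 2. Cry2 was at 39.6 and 43.2 and 41.6 and 41.6 CPM there. Nfil3, the repressor that acts on D-boxes and peaks opposite to Dbp, was at 56.5 and 26.4 CPM with placebo and 66.0 and 17.9 CPM with tamoxifen in adventitial fibroblasts, low in placebo 2 and tamoxifen 2. In alveolar fibroblasts, at 25.4 and 37.6 and 47.4 and 42.8 CPM, Nfil3 did not show this. Of the 10 cell types in which Nfil3 was tested, placebo 2 and tamoxifen 2 were both below in 1, adventitial fibroblasts, and both above in 2, and both tamoxifen mice were above both placebo mice in 4.

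Genes of other pathways also differed between the mice. Of 9 glucocorticoid response genes, 0 of 118 pairs were called between the groups. Fkbp5, a target of the glucocorticoid receptor that was chosen after its values were seen, was highest in placebo 2 and lowest in placebo 1 in 11 of 11 cell types. The share of all genes with those 2 mice highest and lowest was not computed. In alveolar fibroblasts Fkbp5 was at 3.36 and 48.2 CPM with placebo and 13.1 and 27.7 CPM with tamoxifen, and in T cells at 14.7 and 38.4 and 29.0 and 23.7 CPM. Immediate early and dissociation genes (13 genes) had 3 of 201 pairs called higher with tamoxifen, and 7 temperature-responsive genes had 2 of 109, all of them in pericytes or smooth muscle cells. The order of Fkbp5 in alveolar fibroblasts was that of Dbp and Tef, with placebo 2 highest, then tamoxifen 2, tamoxifen 1 and placebo 1. Placebo 2 and tamoxifen 2 were both above the other mice for Fkbp5 in 3 of 11 cell types and below in 0. The part of these signals in the clock result was not tested.

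Dbp was followed across all genes by the correlation of log2 CPM, centred within each cell type, over 44 points (11 cell types in 4 mice). The points share 4 libraries, so the correlation is a description. Among 4339 genes with a median r of 0.02, Tef was first at r = 0.72, and Nr1d2 had rank 5 at 0.54. Between them stood Map2k3, a stress kinase (0.62), the unnamed transcript CAAA01147332.1 (0.58) and Pcgf5, a Polycomb protein (0.55). The 5 lowest were Cdc42ep3 (-0.57), Mbd1 (-0.52), Isyna1 (-0.47), U2surp (-0.46) and Btg2 (-0.45). Clock stood at -0.056, and Arntl, Npas2, Per2, Per3, Cry1 and Nr1d1 did not enter, since only genes tested in at least 75% of the 11 cell types were compared.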

How the data were processed

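Whole-number UMI counts were deposited for every gene in each barcode. They were made with Cell Ranger 5.0.0 per the file headers, whereas version 8.0.1 and the build mm10 stand in the submitters' processing notes. Cells were filtered as given above and gated on 24 marker lists: at least 3 detected markers, a lead of 2 over every other list, and at most 2 rare markers (in under 25% of cells of that type) of another compartment, which removed likely doublets, 7.04% to 7.85% of kept cells. The scoring rule was set after looking at the cells. The 10 genes and the gene lists were chosen with earlier results of these data known. Named beyond them were Per1, Cry2, Ciart, Bhlhe40, Nfil3 and the 5 genes most and least correlated with Dbp. Hlf, Bhlhe41 and Fkbp5 were added after their values were seen.

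UMIs were summed per mouse and cell type (23490 cells) and tested in edgeR 4.0.16 (R 4.3.3; TMM scaling, filterByExpr, quasi-likelihood F test), with Benjamini-Hochberg adjustment over all genes of a cell type. Nothing in the labels says that same-numbered mice are related, so no block was used. Levels in CPM are not TMM-scaled. On simulated counts the test recovered 94.0% of 200 4-fold changes among 9619 genes of alveolar fibroblasts, with 7 false calls. Among 9543 genes of T cells it recovered 95.0% of 199, with 10 false calls. The changed genes were drawn from well-counted genes only, and the simulated spread between mice was fixed for all genes. These shares therefore do not carry over to clock genes with few UMIs or with a wide spread between mice. Alternatives were DESeq2 1.42.0, RLE size factors, no count filter, a replicate block, each mouse left out, a stricter gate and equal cells per mouse. The number of mice (2 per group) and the UMIs behind each value both limit precision.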

Additional observations from a re-analysis of the deposited data

Results flagged for a closer look

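The listed pairs are those in which both tamoxifen mice lay above both placebo mice in one cell type and below them in another. The difference between the cell types was not tested, and no log2 fold change among them was called in edgeR. Clock was higher with tamoxifen in adventitial fibroblasts (0.26), alveolar fibroblasts (0.53) and capillary endothelial cells (0.40) and lower in neutrophils (-0.37), so the log2 fold changes differed by 0.62, 0.89 and 0.76. Nr1d1 was higher in T cells (0.52; 7.52 and 6.93 CPM with placebo, 8.66 and 12.5 with tamoxifen) and lower in alveolar type 2 cells (-0.49; 67.8 and 68.0 and 56.6 and 35.5 CPM), a difference of 1.00. Tef was higher in club or secretory cells (0.79; 28.2 and 42.8 and 52.4 and 76.0 CPM) and lower in pericytes or smooth muscle cells (-0.45; 45.2 and 40.8 and 29.3 and 33.3 CPM), a difference of 1.25.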

How the results depend on the processing

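No clock gene was called with DESeq2, RLE size factors, no count filter, the stricter gate, equal cells per mouse, or cells with markers of another compartment kept (an alternative added after seeing the data). Leaving out a mouse gave 0 to 1 called pairs. The call was Dbp in capillary endothelial cells without placebo 1, whose fold change ranged from -2.03 to -1.01. The count over all genes, 23, was less stable: 656 with no count filter, 39 with the stricter gate, 39 with the other-compartment cells kept, and 258 to 583 with a mouse left out.

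With the replicate numbers as a block, 0 pairs of these genes and 234 tests in all were called. The numbers pair no mice in the labels. The deviations of same-numbered mice correlated over genes from -0.25 to 0.44 (median 0.03), over 0.1 in 3 of 16 cell types and under -0.1 in 3. Those over 0.1 were club or secretory cells (0.44), capillary endothelial cells (0.16) and alveolar fibroblasts (0.13). Those under -0.1 were neutrophils (-0.25), non-classical monocytes (-0.105) and pericytes or smooth muscle cells (-0.104). With the numbers of the tamoxifen mice crossed (added after seeing the data), 0 pairs and 157 tests were called.

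The cell types with both tamoxifen mice below both placebo mice in day-side share numbered 1, 0 with equal cells per mouse, 2 with other-compartment cells kept, and 1 to 6 with a mouse left out. The mean difference in that share ranged from -9.22 to 0.84 points with a mouse left out. The types with placebo 2 and tamoxifen 2 highest numbered 5 with the stricter gate and 5 with Per2 added to the day side. They numbered 6 with equal cells per mouse and 7 with other-compartment cells kept. With Dbp, Nr1d1 and Nr1d2 set against Arntl and Npas2 alone they numbered 6. With a mouse left out they numbered 6 to 7. Leaving out a mouse makes both orders easier to meet, so neither count could fall below its value with all mice.

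Small differences turned sign with cells of another compartment kept: the mean over cell types of Clock was 0.022 and of Tef -0.039, and Per2 in alveolar fibroblasts was -0.024. With equal cells per mouse Per2 in alveolar fibroblasts was -0.17 and Dbp in mesothelial cells -0.10. Per2 in neutrophils, -0.014, was 0.016 with DESeq2, 0.0022 with RLE size factors, 0.015 with the block and 0.021 with it crossed. The cause was not tested.

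With a mouse left out, the mean differences over cell types ranged over 0 in each of the 10 genes: -0.16 to 0.56 (Arntl), -0.34 to 0.18 (Clock), -1.95 to 0.64 (Npas2), -0.76 to 0.33 (Per2), -0.46 to 0.16 (Per3), -0.28 to 0.14 (Cry1), -0.48 to 0.16 (Nr1d1), -0.34 to 0.076 (Nr1d2), -0.58 to 0.10 (Dbp) and -0.31 to 0.34 (Tef). So did the log2 fold changes in alveolar fibroblasts of Arntl (-0.90 to 1.55), Per2 (-0.99 to 1.61), Dbp (-0.84 to 0.52) and Nr1d1 (-0.27 to 0.32), and those of Dbp in interstitial macrophages (-2.80 to 0.67), Dbp in mesothelial cells (-0.29 to 0.86) and Per2 in neutrophils (-0.24 to 0.35). Fewer samples, with one group left at 1 mouse assumed to vary like the other, are part of that setting by construction.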
